A study of Mus musculus with 24 samples.

Results

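Ribosome footprints of restimulated mouse Th1 effector cells were compared between 4 h and 1 h after restimulation. The comparison uses 4 of the 24 libraries of the series, 2 at 4 h and 2 at 1 h, and sets each 4 h library against the 1 h library with the same replicate number. It covers every gene with a mean of at least 1 FPKM (a fragment count scaled by gene length and library depth) over those 4 libraries, which were 9264 of the 9420 genes in the deposited table. Both groups were Th1 effector CD4+ T cells of the mouse strain DO11.10, whose T cells carry a transgenic receptor for an ovalbumin peptide. The cells had been on plates coated with goat antibody to hamster immunoglobulin G, with soluble antibodies to CD3 at 1 µg/ml and to CD28 at 2.5 µg/ml, for 4 h in the first group and for 1 h in the second. The labels give no age, sex or further genotype, and do not say whether the libraries of a group came from separate cultures or animals. The fit behind the standard errors and p-values used all 8 footprint libraries, among them 2 at 0 h, for which no antibodies to CD3 or CD28 are listed. The p-values thus measure the spread between replicated libraries at 0, 1 and 4 h, which may be technical. The same series followed newly transcribed RNA, labelled with 4-thiouridine (4sU), and total RNA at matching times, to ask how transcription and translation of each gene follow each other during T cell activation.

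Ribosome profiling sequences the short pieces of mRNA that a translating ribosome shields from nuclease. The reads over a coding sequence therefore grow both with the amount of the mRNA and with the number of ribosomes on each copy, and the footprints alone do not separate them. When the receptor of an effector T cell is engaged, immediate early transcription factors come first, cytokines and surface receptors follow, and the cell then enlarges its capacity to make ribosomes and proteins, while genes that keep lymphocytes quiescent and circulating are switched off.

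The steps between the smallest FPKM values placed the depth at 26.2 M and 14.02 M reads in the 4 h libraries and at 23.1 M and 17.8 M reads in the 1 h libraries (replicates 1 and 2), an estimate from 27 to 76 low values per library. The label was checked against 8 markers of CD4 and Th1 cells, all of which were measured. Of these 1 was called higher (Ifng) and 1 lower (Cxcr3), both described below. That is 12.5% in each direction. Over all genes tested 17.7% were called higher and 19.3% lower, by the test given in the next paragraph, and the marker counts here stand beside those shares. Cd3e, a chain of the T cell receptor complex, had 871 and 813 FPKM at 4 h against 1086 and 849.7 FPKM at 1 h, and Cd4 had 684 and 538 FPKM at 4 h against 645 and 453 FPKM at 1 h. Markers of other cell types also had footprints. The 6 CD8 T cell markers summed to 18350 and 7110.3 FPKM at 4 h against 10288 and 2897 FPKM at 1 h. Most of it was Gzmb, a killer-cell protease that activated Th1 cells make too. Of the 6 markers 2 were called higher and 1 lower, none of them without the replicate number. Gzma, another protease of killer cells, stood at 857 and 15.9 FPKM at 4 h and at 638 and 14.1 FPKM at 1 h, so that it differed more between the replicate numbers than between the times. The 5 B cell markers measured summed to 6.57 and 7.52 FPKM at 4 h against 44.0 and 16.5 FPKM at 1 h, and 3 of the 4 tested were called lower. The 3 dendritic cell markers tested, all parts of antigen presentation, summed to 112 and 87.0 FPKM at 4 h against 315 and 119.95 FPKM at 1 h, and all 3 were called lower. No B cell or dendritic cell marker was called without the replicate number in the fit, and the dendritic cell markers Itgax, Flt3, Zbtb46 and Xcr1 were not tested. Of 6 NK cell markers 3 were tested, with Klrk1 called lower and Eomes higher, and none of 6 macrophage markers reached the minimum level. In these bulk samples fewer cells of a type and less RNA per cell cannot be told apart, and the part of other cells in the results below was not tested.

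Footprints differed between the times for 37.0% of genes. Of the 9264 genes, 1639 (17.7%) were called higher at 4 h and 1787 (19.3%) lower, where a call is an adjusted p below 0.05 by limma on log2(FPKM + 1) with the replicate number as a block. Among them 699 (7.55%) were at least 2-fold higher and 614 (6.63%) at least 2-fold lower. All changes below are on this log2 scale, which understates the change of genes with low FPKM, and come with their standard error (SE) from limma. The median change over all genes was -0.05. Both 4 h libraries lay above both 1 h libraries in 2746 genes (29.6%) and below both in 2959 genes (31.9%). Each of the 3426 called genes moved the same way in both replicates, which the blocked fit on these same libraries favours. Across all genes, which are not independent replicates, the change in replicate 1 and in replicate 2 had Pearson r = 0.801 and Spearman rho = 0.811. Without the replicate number in the fit limma called 1318 genes (721 or 7.78% higher, 597 or 6.44% lower), and all 1318 were among those called with it. The count was 1319 without the 1 h library of replicate 1 and 1620 without that of replicate 2, and lay between 3139 and 4022 when a 4 h or a 0 h footprint library was left out.

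**Figure D1:**
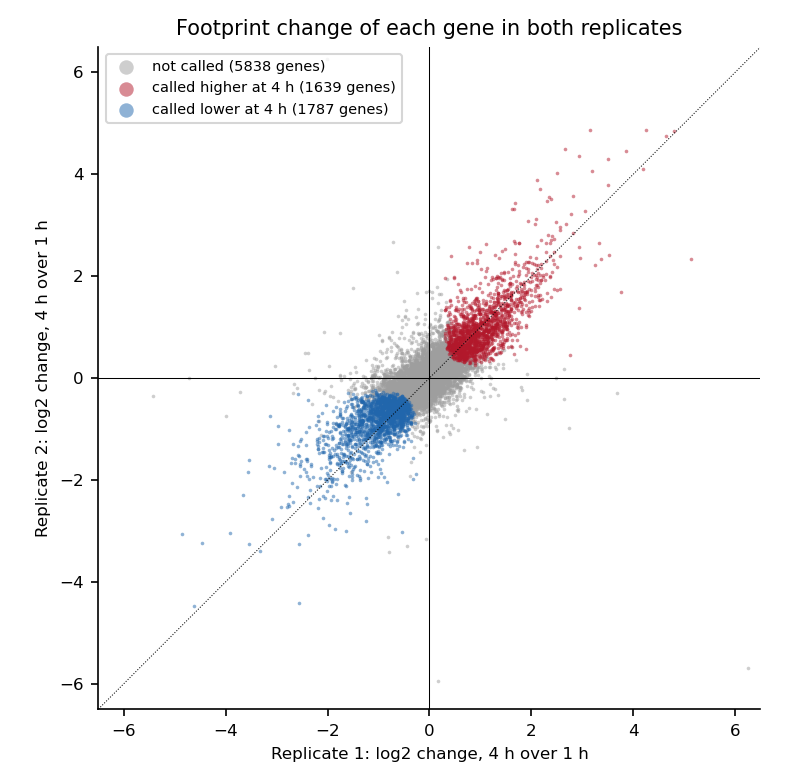
Footprint change of each of 9264 genes as log2(FPKM + 1) at 4 h minus 1 h, in replicate 1 (horizontal axis) and in replicate 2 (vertical axis), with each point a gene and the dotted line marking equal change. The 1639 genes called higher lie at the upper right and the 1787 called lower at the lower left.

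The genes with the largest rise were mostly secreted or membrane-bound immune mediators. Il2, the T cell growth factor (ENSMUSG00000027720, GRCm38 chromosome 3, 37120523 to 37125959), had 124 and 161 FPKM at 4 h against 3.48 and 4.61 FPKM at 1 h. Both 4 h libraries thus stood far above both 1 h libraries, a change of 4.83 ± 0.19 SE (limma, adjusted p = 0.000223). Lad1, known as a basement membrane anchor of epithelia (ENSMUSG00000041782, chromosome 1, 135818598 to 135833342), had 24.1 and 27.7 FPKM at 4 h against 0 and 0.07 FPKM at 1 h (4.70 ± 0.19 SE, adjusted p = 0.000223). Its 1 h values rest on about 0 and 2 reads. Il24, a cytokine of the IL-10 family, had 76.6 and 45.4 FPKM at 4 h against 3.06 and 0.59 FPKM at 1 h (4.56 ± 0.26 SE, adjusted p = 0.000576). Ccl1, a chemokine that attracts CCR8-bearing cells, had 324 and 144 FPKM at 4 h against 21.4 and 5.57 FPKM at 1 h (4.16 ± 0.22 SE). Lta, the lymphotoxin that Th1 cells secrete (ENSMUSG00000024402, chromosome 17, 35203165 to 35205351), had 701 and 695 FPKM at 4 h against 78.3 and 22.8 FPKM at 1 h (4.01 ± 0.38 SE, adjusted p = 0.00108). These genes were chosen for size and for 4 h libraries above both 1 h libraries, so that order is a description. The other members of the 12 largest rises were Tnip3, an inhibitor of NF-kB signalling (4.15), Crtam, a receptor of activated T and NK cells (3.90), Crabp2, a retinoic acid carrier (3.74), Tnfsf11, the cytokine RANKL (3.65), Il13, a Th2 cytokine (3.64), Csf2, the cytokine GM-CSF (3.63), and Hbegf, an EGF receptor ligand (3.58). Il2 and Lad1 kept their calls without the replicate number in the fit (adjusted p = 0.0114 and 0.00363), as did the other 10.

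**Figure D2:**
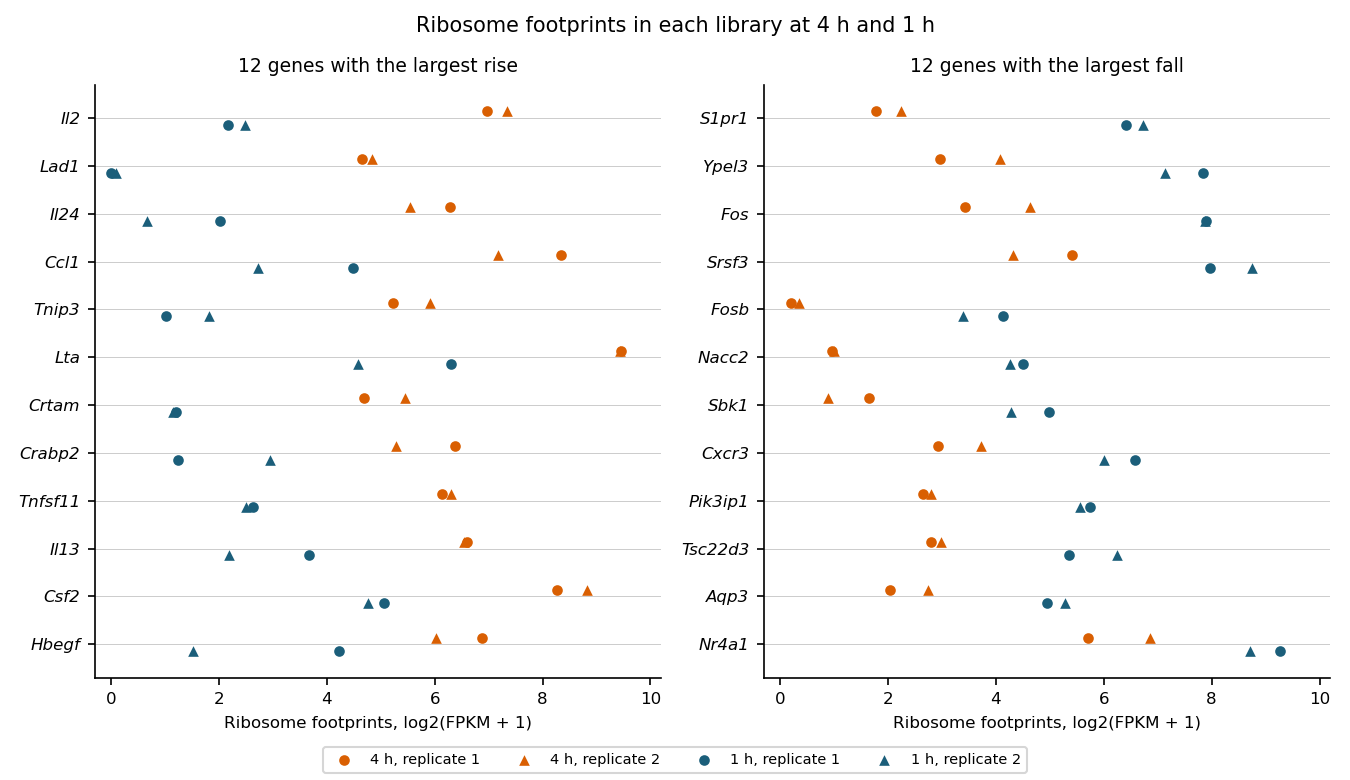
Ribosome footprints as log2(FPKM + 1) in each library for the 12 genes with the largest rise (left) and the 12 with the largest fall (right), with 4 h in orange above 1 h in blue, circles for replicate 1 and triangles for replicate 2. The genes were chosen so that the 4 h points lie to the right of the 1 h points on the left panel and to their left on the right panel, and Il2 leads with a change of 4.83.

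Cytokines and chemokines were the list with the highest median change. Of 32 members tested 23 were called higher and 2 lower, beside 17.7% and 19.3% of all genes, and the median change was 1.96, against -0.05 for all genes. Without the replicate number 14 were called higher and 0 lower, and the count of rises was 17 to 23 when single libraries were left out. Csf2 had 306 and 454 FPKM at 4 h against 32.4 and 26.3 FPKM at 1 h. Xcl1, a chemokine for cross-presenting dendritic cells, had 129.5 and 268 FPKM at 4 h against 25.4 and 23.3 FPKM at 1 h (2.89 ± 0.28 SE, adjusted p = 0.00110). Both genes showed no overlap between the times, which the choice of the largest rises required for Csf2. Ifng, the defining cytokine of Th1 cells, had 19196 and 11655 FPKM at 4 h against 6259 and 1173 FPKM at 1 h (2.46 ± 0.53 SE, adjusted p = 0.0130). Its call was lost without the replicate number (adjusted p = 0.0849) and without the 1 h library of replicate 2. The share of the Ifng coding sequence whose 28-base windows also occur in another annotated gene was 45.9%, so its level is uncertain. Ccl3, an inflammatory chemokine, had 1757 and 702 FPKM at 4 h against 654 and 123 FPKM at 1 h (1.96 ± 0.26 SE), a call lost without the replicate number (adjusted p = 0.241). Of the markers of other helper lineages tested, 4 were called higher and 1 lower. Il4 (3.20), Il5 (2.76) and Il13 (3.64) of Th2 cells and Il17a (1.96) of Th17 cells were called higher, and Il4 had 106 and 48.7 FPKM at 4 h against 14.03 and 3.18 FPKM at 1 h. Gata3, the master factor of Th2 cells, was called lower (-0.52) with overlapping values, a call lost without the replicate number (adjusted p = 0.539).

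Tnf went the other way. It had 992 and 404 FPKM at 4 h against 2887 and 707 FPKM at 1 h, so each replicate fell but the times overlapped (-1.17 ± 0.30 SE, adjusted p = 0.0241), and the call was lost without the replicate number (adjusted p = 0.333) and without the 1 h library of replicate 1. Fasl, the death ligand, was the other cytokine gene called lower, with 15.7 and 33.01 FPKM at 4 h against 40.8 and 59.2 FPKM at 1 h (-1.08 ± 0.19 SE), and without the replicate number neither was called. In replicate 1, sampled at 5 times, Tnf stood at 31.7, 515, 2887, 2114 and 992 FPKM at 0, 0.5, 1, 2 and 4 h, with its highest value at 1 h. Over the same times Il2 stood at 0, 0.1, 3.48, 88.0 and 124 FPKM and Ifng at 91.9, 929.7, 6259, 13208 and 19196 FPKM, both highest at 4 h.

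**Figure D3:**
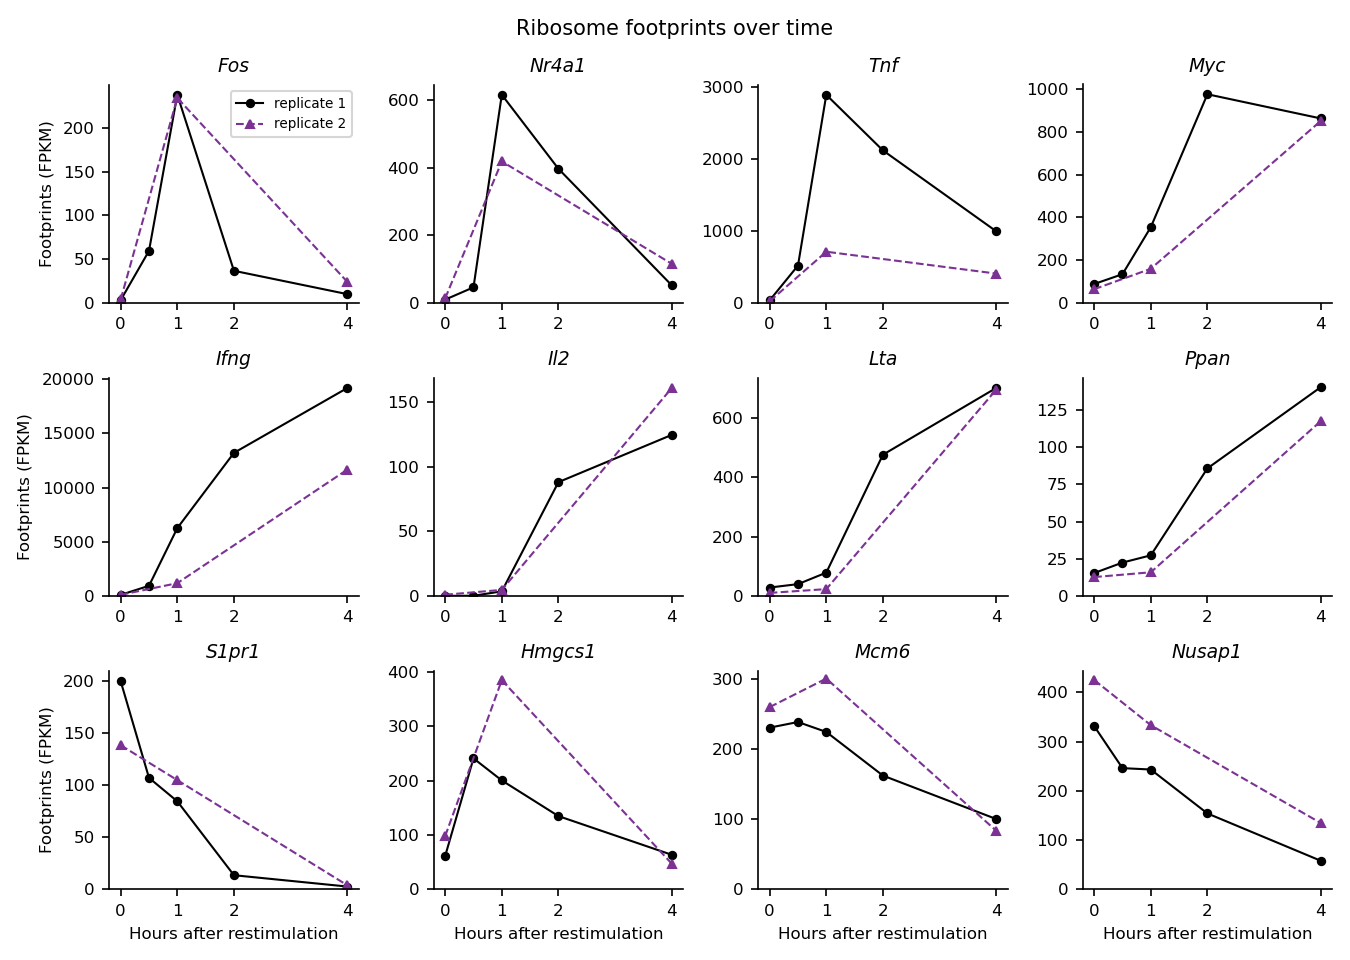
Ribosome footprints (FPKM, vertical axes from 0) of 12 genes against hours after restimulation, with replicate 1 at 0, 0.5, 1, 2 and 4 h as a solid line and replicate 2 at 0, 1 and 4 h as a dashed line. Fos, Nr4a1 and Tnf are highest at 1 h in both replicates, Ifng, Il2, Lta and Ppan at 4 h.

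The promoter of Il2 is printed because that gene had the largest rise. The 250 bases before its start are from RefSeq (GRCm38.p6, chr3:37125955-37126204, minus strand), and capitals mark TTTCC on either strand, the core letters bound by the NFAT factors that receptor signals activate and that also lie inside sites of other factors.
Il2: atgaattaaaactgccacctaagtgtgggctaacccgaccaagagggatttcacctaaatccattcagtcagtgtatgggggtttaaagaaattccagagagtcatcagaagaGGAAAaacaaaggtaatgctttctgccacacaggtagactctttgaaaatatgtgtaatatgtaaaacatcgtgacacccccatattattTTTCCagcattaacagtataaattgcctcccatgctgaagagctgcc
The window held 2 matches. Of the 25 RefSeq promoters of 24 cytokine genes, 22 (88.0%) held TTTCC within 250 bases upstream, and 54.4% of the 9458 promoters of 7443 tested genes did. These letters describe the windows and show no binding.

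Immediate early transcription factors, which receptor signals induce without new protein, were split. Of 23 tested, 9 were called lower and 2 higher, beside 19.3% and 17.7% of all genes. The median was -0.22, with -0.93 in replicate 1 and 0.19 in replicate 2, so its sign differed between the replicates. Fos, a subunit of AP-1 (ENSMUSG00000021250, chromosome 12, 85473890 to 85477273), had 9.77 and 23.9 FPKM at 4 h against 238 and 234 FPKM at 1 h (-3.86 ± 0.28 SE, adjusted p = 0.000701). Fosb, its close relative, had 0.15 and 0.28 FPKM at 4 h, about 4 reads in each library, against 16.4 and 9.55 FPKM at 1 h (-3.48 ± 0.30 SE). Nr4a1, an orphan nuclear receptor used as a reporter of receptor signals, had 51.5 and 115 FPKM at 4 h against 616 and 418 FPKM at 1 h (-2.70 ± 0.36 SE, adjusted p = 0.00255). In all 3 genes the 4 h libraries lay below the 1 h libraries, as the choice of the 12 largest falls required. Egr2, a zinc finger factor, had 26.04 and 56.0 FPKM at 4 h against 211 and 109 FPKM at 1 h (-1.96 ± 0.42 SE, adjusted p = 0.0133). Atf3, a stress-responsive member of the ATF family, rose, with 35.9 and 66.1 FPKM at 4 h against 5.94 and 8.71 FPKM at 1 h (2.60 ± 0.19 SE). Jun, Junb, Jund and Nr4a3 had changes of -0.64, 0.36, 0.11 and 0.44 and overlapped between the times. The count of rises in this list was 1 to 6 and that of falls 8 to 13 when single libraries were left out, with 6 rises without the 4 h library of replicate 1.

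Other transcription factors were mixed, with some large rises by 4 h. Among all genes 17.7% were called higher and 19.3% lower. The 19 lineage and activation factors below had a median of 0.02, with 10 changes above 0, 9 below 0 and a lowest of -1.87. Myc, which drives growth and ribosome production (ENSMUSG00000022346, chromosome 15, 61985391 to 61990374), had 863 and 851 FPKM at 4 h against 353 and 159 FPKM at 1 h, with no overlap (1.85 ± 0.27 SE, adjusted p = 0.00343). Within the Myc network of 12 genes tested 4 were called higher and 3 lower (1 and 2 without the replicate number, 2 and 3 without the 1 h library of replicate 2), and the 3 falls were Mxd3, Mxd4 and Mxd1, whose proteins oppose Myc on shared sites. Mxd3 had 18.0 and 26.5 FPKM at 4 h against 94.5 and 89.6 FPKM at 1 h (-2.03 ± 0.20 SE). Of 14 NF-kB subunits and inhibitors 7 were called higher and 0 lower, with a median of 0.79 (4 higher without the replicate number). The absence of falls did not hold when the 1 h or the 4 h library of replicate 2 was left out. Nfkb2, precursor of the p52 subunit, had 128 and 118 FPKM at 4 h against 39.5 and 17.8 FPKM at 1 h (2.17 ± 0.25 SE, adjusted p = 0.00163), and Nfkb1, precursor of p50, had 428 and 318 FPKM at 4 h against 122 and 93.8 FPKM at 1 h (1.78 ± 0.17 SE). The inhibitors Nfkbia and Tnfaip3, early targets of the pathway, had changes of 0.28 and 0.07 and did not pass the test. Of 19 lineage and activation factors 8 were called higher and 5 lower (2 and 3 without the replicate number, and 5 and 2 without the 1 h library of replicate 2). Eomes, a T-box factor of effector cells, had 11.2 and 33.9 FPKM at 4 h against 1.70 and 1.65 FPKM at 1 h (2.95 ± 0.40 SE), and Irf4, which scales with receptor signal strength, had 1113 and 1294 FPKM at 4 h against 359 and 291 FPKM at 1 h (1.89 ± 0.26 SE). Batf3 was called higher (2.18 ± 0.40 SE) with overlapping values of 216 and 32.8 FPKM at 4 h against 40.8 and 7.55 FPKM at 1 h, and the call was lost without the replicate number (adjusted p = 0.218). Irf8, a relative of Irf4, had 440.0 and 427 FPKM at 4 h against 264 and 163 FPKM at 1 h (1.06 ± 0.22 SE), a call lost without the replicate number (adjusted p = 0.0522) and without the 1 h library of replicate 2. Tbx21, the master factor of Th1 cells, had 166 and 136 FPKM at 4 h against 276 and 156 FPKM at 1 h and did not pass (-0.46 ± 0.18 SE, adjusted p = 0.0897).

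Most genes that keep T cells quiescent and recirculating fell. Of 24 in the list 15 were called lower, 1 higher and 8 neither, beside 19.3% and 17.7% of all genes called lower and higher, with a median of -1.08, and the count of falls was 10 without the replicate number and 12 to 17 when single libraries were left out. S1pr1, the sphingosine phosphate receptor that lets lymphocytes leave tissue (ENSMUSG00000045092, chromosome 3, 115710433 to 115715072), had 2.45 and 3.73 FPKM at 4 h against 84.3 and 105 FPKM at 1 h. It had the largest fall of all genes tested (-4.56 ± 0.25 SE, adjusted p = 0.000576). Klf2, a factor that sustains S1pr1, had 20.2 and 27.9 FPKM at 4 h against 89.9 and 192 FPKM at 1 h (-2.42 ± 0.19 SE, adjusted p = 0.000727). Pik3ip1, an inhibitor of PI3 kinase, had 5.30 and 5.96 FPKM at 4 h against 52.9 and 46.2 FPKM at 1 h (-2.93 ± 0.30 SE). Tsc22d3, the glucocorticoid-induced protein GILZ, had 5.92 and 6.89 FPKM at 4 h against 40.0 and 74.8 FPKM at 1 h (-2.92 ± 0.20 SE). The groups did not overlap in any of these 4 genes, which the choice of the largest falls required for all but Klf2. Cdkn1b, the cell cycle inhibitor p27, also fell (-2.05 ± 0.16 SE), as did Tcf7 and Lef1, factors of less differentiated T cells (-1.95 ± 0.17 SE and -1.47 ± 0.16 SE). Tcf7 overlapped between the times, with 2.17 and 13.7 FPKM at 4 h against 11.7 and 53.7 FPKM at 1 h, and was not called without the replicate number (adjusted p = 0.253). Slfn2, which guards quiescence, was the member called higher (0.94 ± 0.27 SE). No member was called higher without the replicate number (0 of 24), without either 1 h library or without the 4 h library of replicate 1.

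The remaining large falls were of mixed function. Ypel3, a growth suppressor, had 6.81 and 15.8 FPKM at 4 h against 227 and 140.3 FPKM at 1 h (-3.97 ± 0.50 SE). Nacc2, a transcriptional repressor, changed by -3.39, Sbk1, a kinase, by -3.36, and Aqp3, a glycerol and water channel, by -2.72. Srsf3, a splicing factor, had 41.5 and 18.9 FPKM at 4 h against 249 and 427 FPKM at 1 h (-3.49 ± 0.39 SE), but 94.8% of its coding windows occur in another annotated gene, so its level is uncertain.

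Receptors for cytokines and chemokines were mixed, with 4 of 26 called higher and 10 lower (median -0.42). These were 15.4% and 38.5%, beside 17.7% and 19.3% of all genes. Cxcr3, the chemokine receptor that marks Th1 cells, had 6.57 and 12.2 FPKM at 4 h against 94.9 and 63.5 FPKM at 1 h (-2.98 ± 0.41 SE, adjusted p = 0.00289). Cxcr4, which retains cells in marrow and lymphoid tissue, had 19.9 and 30.7 FPKM at 4 h against 107 and 125 FPKM at 1 h (-2.18 ± 0.35 SE). Il2ra, the high-affinity IL-2 receptor chain, rose to 2857 and 3252 FPKM at 4 h, against 1061 and 845 FPKM at 1 h (1.69 ± 0.22 SE). Without the replicate number 2 members were called higher and 4 lower, and without the 1 h library of replicate 1 or 2 the falls were 7 or 6. Among 24 costimulatory and checkpoint receptors 9 were called higher and 3 lower (median 0.49, and 4 higher and 0 lower without the replicate number). The share called higher was 37.5%, and the share called lower, 12.5%, was below that of all genes. The falls were 0 without the 1 h library of replicate 1 and 5 without the 4 h library of replicate 2. Crtam had 24.9 and 42.9 FPKM at 4 h against 1.29 and 1.22 FPKM at 1 h (3.90 ± 0.24 SE). Havcr2, the inhibitory receptor TIM-3, had 127 and 96.7 FPKM at 4 h against 23.4 and 13.9 FPKM at 1 h (2.55 ± 0.15 SE). Tnfrsf4 (OX40) and Tnfrsf9 (4-1BB), costimulatory receptors of activated T cells, changed by 2.18 and 2.12, while Cd28, the receptor that the second antibody engages, fell to 595 and 533 FPKM at 4 h, against 1021 and 928 FPKM at 1 h (-0.79 ± 0.19 SE). Ctla4, the inhibitory counterpart of Cd28, fell by 0.92. Cd69, an early activation marker, had 276 and 597 FPKM at 4 h against 345 and 318 FPKM at 1 h, overlapped and did not pass (0.29 ± 0.28 SE, adjusted p = 0.440).

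Inside the cell, 8 of 25 feedback inhibitors were called higher and 6 lower (median 0.10), beside 17.7% and 19.3% of all genes, and 4 and 1 without the replicate number. Rgs16, which dampens signalling of chemokine receptors, had 378 and 234 FPKM at 4 h against 87.3 and 25.8 FPKM at 1 h (2.61 ± 0.30 SE), and Cish, which blocks signals from cytokine receptors, had 862 and 842 FPKM at 4 h against 273 and 83.1 FPKM at 1 h (2.49 ± 0.36 SE). Of 26 genes of the receptor signalling machinery 6 were called higher and 5 lower, close to the shares of all genes (median 0.08, and 2 and 1 without the replicate number). The adaptor Lcp2 (SLP-76) had 417 and 516 FPKM at 4 h against 224 and 146 FPKM at 1 h (1.35 ± 0.24 SE), a call lost without the 1 h library of replicate 2 (adjusted p = 0.0554). The proximal kinases Fyn and Lck were called lower, by -0.81 and -0.62. Among 19 mRNA decay factors 4 were called higher and 5 lower (2 and 4 without the replicate number). Zfp36, which binds AU-rich elements of cytokine mRNAs, had 72.3 and 52.2 FPKM at 4 h against 429 and 169.8 FPKM at 1 h (-2.12 ± 0.30 SE), and Btg2, which recruits the deadenylase, had 62.1 and 92.4 FPKM at 4 h against 288 and 244 FPKM at 1 h (-1.79 ± 0.21 SE). Members that rose were Rc3h1 (Roquin), which destabilises costimulatory receptor mRNAs (0.73), and Zc3h12d, a relative of Regnase (1.02). The counts of rises in these 3 lists were 6 to 10, 1 to 7 and 0 to 4 when single libraries were left out, and the lowest came without the 1 h library of replicate 2 for the first pair and without that of replicate 1 for mRNA decay. Without the 1 h library of replicate 1 the falls among feedback inhibitors were 2, and without either 1 h library no fall was called in the signalling machinery (0 of 26).

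Nearly all ribosome biogenesis factors rose. Of 50 members, all tested, 44 were called higher and 0 lower, beside 17.7% and 19.3% of all genes, with a median of 1.33 and 49 changes above 0. The count of rises was 38 without the replicate number and 35 to 49 when single libraries were left out. Ppan, a factor of 60S subunit assembly, had 140.5 and 118 FPKM at 4 h against 27.3 and 15.9 FPKM at 1 h (2.57 ± 0.17 SE, adjusted p = 0.000626). Nop2, an rRNA methyltransferase, had 179.5 and 117 FPKM at 4 h against 29.5 and 21.3 FPKM at 1 h (2.48 ± 0.16 SE, adjusted p = 0.000626). Neither gene showed overlap between the times. Polr1b, the second largest subunit of RNA polymerase I, changed by 2.46, Gnl3 (nucleostemin) by 2.38 and Nop56, a core protein of box C/D particles, by 2.14. Npm1, a nucleolar chaperone, had 297 and 405 FPKM at 4 h against 214 and 284 FPKM at 1 h and did not pass (0.49 ± 0.16 SE, adjusted p = 0.0545), with 87.9% of its windows shared with another gene.

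The proteins of the ribosome itself moved less. Of 80 cytosolic ribosomal proteins 48 were tested, and 4 were called higher and 0 lower, with a median of 0.44 and 42 of 48 above 0. The share called higher, 8.33%, was below the 17.7% of all genes, of which 19.3% were called lower. The share of coding windows found in another gene was over 50% in 43 of the 48, so these levels are uncertain. Rpl12 had the largest called change (1.41 ± 0.18 SE). The count of rises ran from 1 without the 1 h library of replicate 2 to 18 without the 4 h library of replicate 2. Among 16 other mRNAs of the TOP class, whose start sequence places their translation under mTOR, 5 were called higher and 0 lower (median 0.46, and 1 without the replicate number). Pabpc1, the poly(A) binding protein, had 385 and 279.6 FPKM at 4 h against 121 and 99.9 FPKM at 1 h (1.57 ± 0.17 SE), with 53.3% of its windows shared. Eef1a1, the elongation factor that brings tRNA to the ribosome, had 5442 and 4578 FPKM at 4 h against 3830 and 3049 FPKM at 1 h and did not pass (0.55 ± 0.30 SE, adjusted p = 0.187), with 89.4% of its windows shared.

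The lists for starting translation, charging tRNA and folding or importing proteins held more calls in the higher direction than in the lower. Of 29 initiation factors 11 were called higher and 1 lower (median 0.41), beside 17.7% and 19.3% of all genes. The shares called higher were 22.5% of mitochondrial ribosomal proteins, 23.1% of ER genes and 27.3% of tRNA synthetases, near that of all genes. Eif2b3, a subunit of the exchange factor of eIF2, had 90.7 and 56.4 FPKM at 4 h against 22.8 and 23.7 FPKM at 1 h (1.58 ± 0.20 SE), Eif1a changed by 2.04 ± 0.17 SE, and the fall was Pdcd4, an inhibitor of the helicase eIF4A (-1.11). Of 22 aminoacyl-tRNA synthetases 6 were called higher and 1 lower (median 0.30), none of them without the replicate number. Among 71 mitochondrial ribosomal proteins 16 were called higher and 4 lower (median 0.16), Mrps6 most (1.63 ± 0.18 SE). Of 25 mitochondrial import factors and chaperones 8 were called higher and 1 lower (median 0.31). Timm9, a carrier chaperone of the space between the membranes, had 122 and 135 FPKM at 4 h against 39.3 and 43.1 FPKM at 1 h (1.61 ± 0.17 SE). Subunits of oxidative phosphorylation stood apart from these lists. Of 53 tested 0 were called higher and 1 lower, with a median of -0.19 and a range from -0.51 to 0.25, and the fall, Sdhd of complex II (-0.51 ± 0.16 SE, adjusted p = 0.0430), was lost in 9 of the 13 alternatives. Without the 4 h library of replicate 2, 6 members were called lower. Heat shock proteins of the cytosol had 6 rises and 1 fall among 19 (median 0.52), led by Hsph1, an exchange factor for HSP70 (2.04 ± 0.15 SE). ER chaperones and unfolded protein response genes had 6 rises and 0 falls among 26 (median 0.23). Xbp1, the factor of that response, had 829.6 and 865 FPKM at 4 h against 419 and 237.5 FPKM at 1 h (1.42 ± 0.24 SE), and Hspa5 (BiP) had 1809 and 1035 FPKM at 4 h against 810.1 and 603 FPKM at 1 h (0.97 ± 0.20 SE). The Xbp1 call was lost without the 1 h library of replicate 2 (adjusted p = 0.0511), and that of Hspa5 without either 1 h library and without the replicate number (adjusted p = 0.121). Of 37 proteasome subunits 2 were called higher and 1 lower (median -0.06). These counts moved with single libraries. For initiation factors, tRNA synthetases, mitochondrial ribosomal proteins, import factors, heat shock proteins and ER genes, in that order, the rises were 5, 0, 8, 4, 2 and 2 without the 1 h library of replicate 1. They were 7, 1, 8, 3, 4 and 1 without that of replicate 2, and 18, 12, 29, 11, 15 and 7 without the 4 h library of replicate 2. Without the replicate number they were 6, 0, 8, 3, 1 and 1.

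Metabolic genes diverged. Amino acid transporters had 4 rises and 0 falls among 11 (median 0.48), and Slc1a5, the glutamine carrier, had 328 and 259 FPKM at 4 h against 121 and 102 FPKM at 1 h (1.39 ± 0.15 SE). Nucleotide synthesis enzymes had 9 rises and 1 fall among 18 (median 0.47), and Ctps, which makes CTP, had 108 and 68.6 FPKM at 4 h against 24.3 and 17.1 FPKM at 1 h (2.02 ± 0.15 SE). Srm, the spermidine synthase, had 224 and 194 FPKM at 4 h against 42.7 and 36.0 FPKM at 1 h (2.38 ± 0.14 SE). Its polyamine list had 3 rises and 1 fall among 9. Of those 9, 5 had over 50% of their coding windows in another gene, so their levels are uncertain. The share was 21.4% for Srm. Serine and one-carbon enzymes had 4 rises and 2 falls among 13, and Shmt1, a serine hydroxymethyltransferase, changed by 1.19. Targets of ATF4 had 6 rises and 2 falls among 17 (median 0.17). The falls were Ddit4, an mTOR inhibitor (-1.34 ± 0.21 SE), and Trib3, a pseudokinase (-1.26 ± 0.17 SE), both with values that overlapped between the times and calls lost without the replicate number (adjusted p = 0.215 and 0.279). Glycolysis and glucose transport had 4 rises and 0 falls among 16 (median 0.10). Hk2, the inducible hexokinase, had 306 and 214 FPKM at 4 h against 88.8 and 65.5 FPKM at 1 h (1.73 ± 0.38 SE). Without the replicate number the rises were 3 among amino acid transporters, 5 among nucleotide enzymes and 1 among polyamine enzymes. They were 4, 2 and 2 among serine enzymes, ATF4 targets and glycolysis genes, and no fall was called in these lists. Without the 1 h library of replicate 1 the rises among amino acid transporters, nucleotide enzymes, polyamine enzymes, ATF4 targets and glycolysis genes were 2, 2, 2, 2 and 2, and without that of replicate 2 they were 2, 5, 1, 3 and 3.

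Cholesterol and fatty acid synthesis had the lowest median of all 33 lists. Of 28 members tested 23 were called lower and 0 higher, beside 19.3% and 17.7% of all genes, with a median of -1.25. The count of falls was 13 without the replicate number and 17 to 23 when single libraries were left out. Hmgcs1, the HMG-CoA synthase of the first committed steps (ENSMUSG00000093930, chromosome 13, 119690379 to 119708260), had 63.3 and 46.9 FPKM at 4 h against 200.3 and 385 FPKM at 1 h (-2.33 ± 0.31 SE, adjusted p = 0.00266). Lss, lanosterol synthase, had 11.0 and 9.03 FPKM at 4 h against 42.2 and 77.4 FPKM at 1 h (-2.41 ± 0.35 SE, adjusted p = 0.00353). Neither gene overlapped between the times. Srebf2, the factor that drives the pathway, fell by 1.20, and Insig1, its sterol-dependent brake, by 1.62. Fasn, the fatty acid synthase, had a change of 0.39 and did not pass. In replicate 1 the list had first gone up, with a median change of 0.96 at 1 h over 0 h, then of -0.38 at 2 h over 1 h and -0.58 at 4 h over 2 h. The 250 bases before the start of Hmgcs1 are shown because they hold the sterol regulatory letters TCACNCCAC (RefSeq, GRCm38.p6, chr13:119690101-119690350, plus strand, match in capitals).
Hmgcs1: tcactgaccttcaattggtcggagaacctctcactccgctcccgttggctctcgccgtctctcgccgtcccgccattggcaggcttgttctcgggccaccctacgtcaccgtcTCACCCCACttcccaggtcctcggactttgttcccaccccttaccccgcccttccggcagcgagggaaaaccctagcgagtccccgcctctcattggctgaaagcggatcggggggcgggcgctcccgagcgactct
On either strand the letters occurred in 1 of 25 promoters of 20 genes of the list (4.00%) and in 1.07% of all 9458 promoters. For ribosome biogenesis the E-box CACGTG, bound by Myc and by other factors, was in 3 of 48 promoters (6.25%), beside 8.68% of all.

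Most genes of DNA replication and of mitosis fell. Of 35 DNA replication and S phase genes 28 were called lower and 0 higher (median -0.85), and of 33 mitosis genes 31 were called lower and 0 higher (median -0.95), beside 19.3% and 17.7% of all genes. Without the replicate number the falls numbered 16 and 19. Leaving out the 1 h library of replicate 1 gave 15 and 15, and leaving out that of replicate 2 gave 8 and 17. Mcm6, a subunit of the replicative helicase (ENSMUSG00000026355, chromosome 1, 128331590 to 128359664), had 99.9 and 83.2 FPKM at 4 h against 224 and 300.1 FPKM at 1 h, with no overlap (-1.50 ± 0.20 SE, adjusted p = 0.00259). Pcna, the sliding clamp, had 585 and 266 FPKM at 4 h against 896 and 1299 FPKM at 1 h (-1.45 ± 0.38 SE, adjusted p = 0.0249), with 77.5% of its windows shared with another gene and a call lost without the replicate number. Nusap1, a spindle protein, had 57.7 and 134 FPKM at 4 h against 243 and 333 FPKM at 1 h (-1.68 ± 0.23 SE, adjusted p = 0.00298, and 0.0525 without the replicate number), and Cdc25c, the phosphatase that starts mitosis, had 6.05 and 8.44 FPKM at 4 h against 21.6 and 28.1 FPKM at 1 h (-1.65 ± 0.16 SE). Mki67, the proliferation marker, fell by 1.15, and Cdc20, an activator of the anaphase complex, by 0.62. No mitosis gene had a change above 0. In replicate 1 the median of the mitosis list was -0.20 at 1 h over 0 h, -0.47 at 2 h over 1 h and -0.69 at 4 h over 2 h.

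Promoters of 3 of these genes are shown because members of both lists moved together. The 150 bases upstream are from RefSeq (GRCm38.p6, minus strand, chr7:135716380-135716529 for Mki67, chr4:118437344-118437493 for Cdc20 and chr1:128359706-128359855 for Mcm6). Capitals mark, on either strand, TTTGAA in the first pair, the core of the element bound by the DREAM complex in mitotic genes, and TTTNGCGC in Mcm6, the letters of an E2F site.
Mki67: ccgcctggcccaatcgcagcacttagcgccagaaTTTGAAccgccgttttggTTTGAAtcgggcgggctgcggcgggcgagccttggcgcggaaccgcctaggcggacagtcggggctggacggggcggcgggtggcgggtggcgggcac
Cdc20: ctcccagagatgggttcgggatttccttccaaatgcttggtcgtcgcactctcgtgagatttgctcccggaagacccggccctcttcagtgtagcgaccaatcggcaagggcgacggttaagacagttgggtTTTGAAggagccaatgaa
Mcm6: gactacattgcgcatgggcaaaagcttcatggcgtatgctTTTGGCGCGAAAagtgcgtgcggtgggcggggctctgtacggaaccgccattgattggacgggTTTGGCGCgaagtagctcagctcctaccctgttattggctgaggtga
The matches numbered 2, 1 and 3, and in Mcm6 a pair of matches on opposite strands overlap. Within 250 bases upstream TTTGAA was in 12 of 30 promoters of 28 mitosis genes (40.0%), beside 10.5% of all promoters, and TTTNGCGC was in 7 of 36 promoters of 29 S phase genes (19.4%), beside 2.21% of all. The match describes these letters and shows no binding.

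Survival and interferon genes were mixed. Of 13 Bcl2 family genes 4 were called higher and 2 lower, beside 17.7% and 19.3% of all genes. The counts were 2 and 1 without the replicate number and 2 and 1 without the 1 h library of replicate 2, and 5 were called lower without the 4 h library of replicate 2. Bcl2l1, which encodes the survival protein Bcl-xL, had 270.1 and 219.6 FPKM at 4 h against 41.0 and 25.9 FPKM at 1 h (2.86 ± 0.26 SE, adjusted p = 0.00101), and Bbc3, the death protein PUMA, had 8.84 and 7.87 FPKM at 4 h against 29.3 and 47.6 FPKM at 1 h (-2.04 ± 0.22 SE). Both kept the groups apart. Of 26 interferon response genes 5 were called higher and 7 lower (median -0.27, 2 and 2 without the replicate number, and 3 and 3 without either 1 h library). Gbp2, a guanylate binding protein, had 162 and 172 FPKM at 4 h against 737 and 456 FPKM at 1 h (-1.79 ± 0.22 SE), while Socs1, the brake on interferon signalling, had 87.3 and 118 FPKM at 4 h against 36.5 and 29.0 FPKM at 1 h (1.61 ± 0.21 SE).

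**Figure D4:**
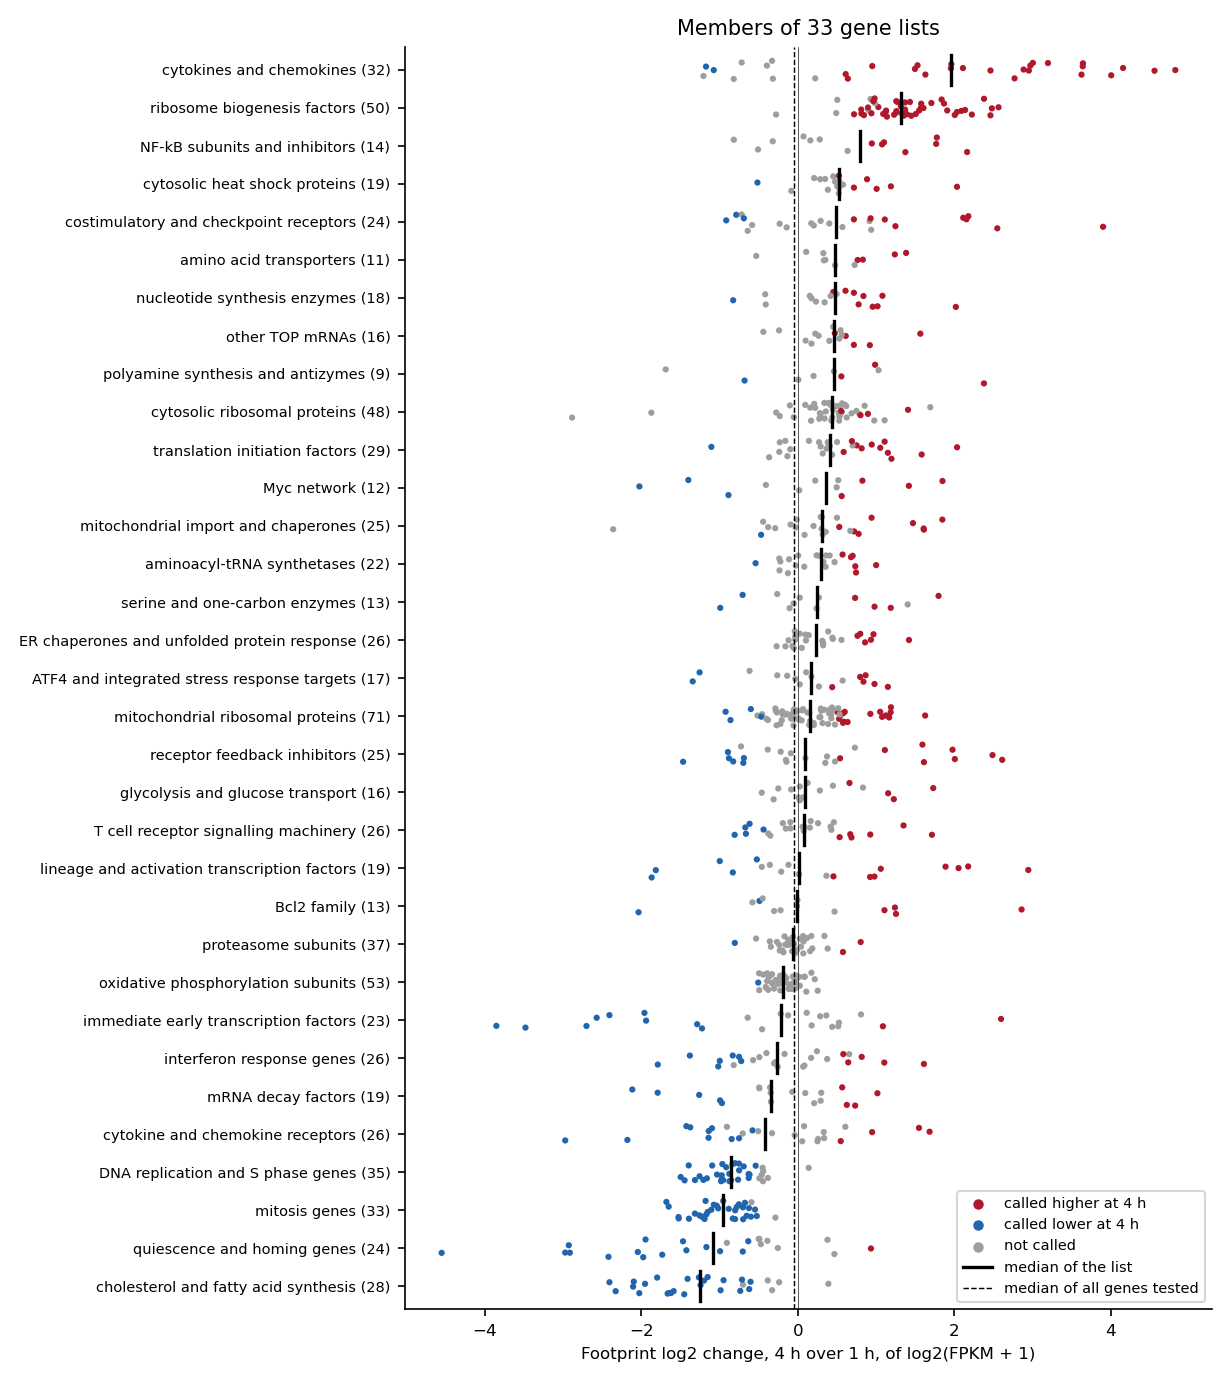
Footprint change at 4 h over 1 h, on the log2(FPKM + 1) scale, of each tested member of 33 gene lists (members tested in brackets), with called rises in red, called falls in blue, other genes in grey, a bar at the median of each list and a dashed line at the median of all genes (-0.05). Cytokines lead with a median of 1.96, and cholesterol synthesis is lowest with -1.25.

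The footprint change was then set beside that of newly made RNA, which follows transcription over the hour of labelling. Both kinds of library were fitted in 1 model, and the difference between the footprint change and the 4sU change was tested as an interaction over 9129 genes. It was called for 423 genes (4.63%), 237 (2.6%) with a footprint change above the 4sU change and 186 (2.04%) below it. Median-of-ratios scaling turned this split round, to 215 above and 296 below. None was called without the replicate number (976 had an unadjusted p below 0.05), and 0 to 4 were called when the 1 h footprint library of replicate 1 or 2, the 4 h 4sU library of replicate 1 or either 1 h 4sU library was left out. The count was 224 without the 4 h footprint library of replicate 2 and 271 without the 4 h 4sU library of replicate 2. Against total RNA, which had 1 library at 1 h, 0 of 8893 genes were called by limma with or without the replicate number, although 1228 had an unadjusted p below 0.05 with it, and 0 to 45 were called when single libraries were left out, 45 of them without the 4 h footprint library of replicate 2.

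Among the genes with a footprint change above the 4sU change, Il2 had 14.8 and 17.7 FPKM of 4sU RNA at 4 h against 1.52 and 2.27 FPKM at 1 h, a rise of 2.59 beside 4.83 in footprints (difference 2.24 ± 0.26 SE, limma adjusted p = 0.0176). Xcl1 had 9.14 and 15.5 FPKM of 4sU RNA at 4 h against 13.9 and 10.1 FPKM at 1 h, a change of 0.01 beside 2.89 in footprints (difference 2.88 ± 0.43 SE, adjusted p = 0.0244). Newly made Xcl1 RNA thus overlapped between the times while its footprints did not. Nfkb2 had 161 and 112 FPKM of 4sU RNA at 4 h against 165 and 93.0 FPKM at 1 h, a change of 0.12 (difference 2.05 ± 0.33 SE, adjusted p = 0.0245). Ccl3 changed by 0.08 in 4sU RNA (difference 1.89). Timp2, a metalloproteinase inhibitor, and Gch1, the first enzyme of tetrahydrobiopterin synthesis, had differences of 1.87 and 2.26. In total RNA, given with no test, Il2 had a change of 1.37, Xcl1 of 3.03, Nfkb2 of 2.60, Ccl3 of 4.26, Timp2 of 0.06 and Gch1 of 0.81, beside footprint changes of 4.83, 2.89, 2.17, 1.96, -0.75 and 1.10.

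Among those below, Nsdhl, a sterol dehydrogenase, had 21.4 and 23.9 FPKM of footprints at 4 h against 77.6 and 129 FPKM at 1 h, and 4.26 and 3.18 FPKM of 4sU RNA at 4 h against 4.34 and 3.42 FPKM at 1 h (difference -2.05 ± 0.32 SE, adjusted p = 0.0245). Its total RNA changed by -1.50. Pcx, pyruvate carboxylase, had 3.62 and 5.68 FPKM of footprints at 4 h against 7.89 and 12.6 FPKM at 1 h, while its 4sU RNA had 5.50 and 11.8 FPKM at 4 h against 1.64 and 2.79 FPKM at 1 h (difference -2.51 ± 0.32 SE, adjusted p = 0.0176). Newly made Pcx RNA rose, and its footprints were called lower (-0.99), a call lost without the replicate number (adjusted p = 0.197) and without the 1 h library of replicate 1. Its total RNA changed by 0.95. Zfp692, a zinc finger factor, had 2.50 and 4.60 FPKM of footprints at 4 h against 3.40 and 5.35 FPKM at 1 h, while its 4sU RNA rose by 1.78 (difference -2.04 ± 0.25 SE) and its total RNA changed by 1.02. Phb (prohibitin), Srsf3 and Nop10, a protein of H/ACA particles, had differences of -3.21, -2.61 and -2.10, but 97.2%, 94.8% and 37.6% of their coding windows occur in another gene, so these levels are uncertain.

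By list, cytokines had a median footprint change of 1.96 beside 0.31 in 4sU RNA and 1.41 in total RNA, with 3 of 32 called above the 4sU change and 0 below. Costimulatory and checkpoint receptors had 0.49, -0.07 and 0.70, with 0 of 24 called in either direction. Cholesterol synthesis had -1.25 in footprints, -0.40 in 4sU RNA and -1.18 in total RNA, with 6 of 28 called below the 4sU change and 0 above, beside 2.04% and 2.6% of all genes. For ribosome biogenesis the medians were 1.33, 1.58 and 1.32, with 6 of 50 called below. Cytosolic ribosomal proteins had 0.44 in footprints, 0.93 in 4sU RNA and 0.11 in total RNA, with 3 of 48 called below, and aminoacyl-tRNA synthetases had 0.30, 0.84 and 0.28, with 5 of 22 called below. S phase genes (-0.85, -1.10 and -0.77) and mitosis genes (-0.95, -1.21 and -0.89) had negative medians in all 3 kinds of library, with 1 of 35 called above the 4sU change and 0 of 33 called.

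**Figure D5:**
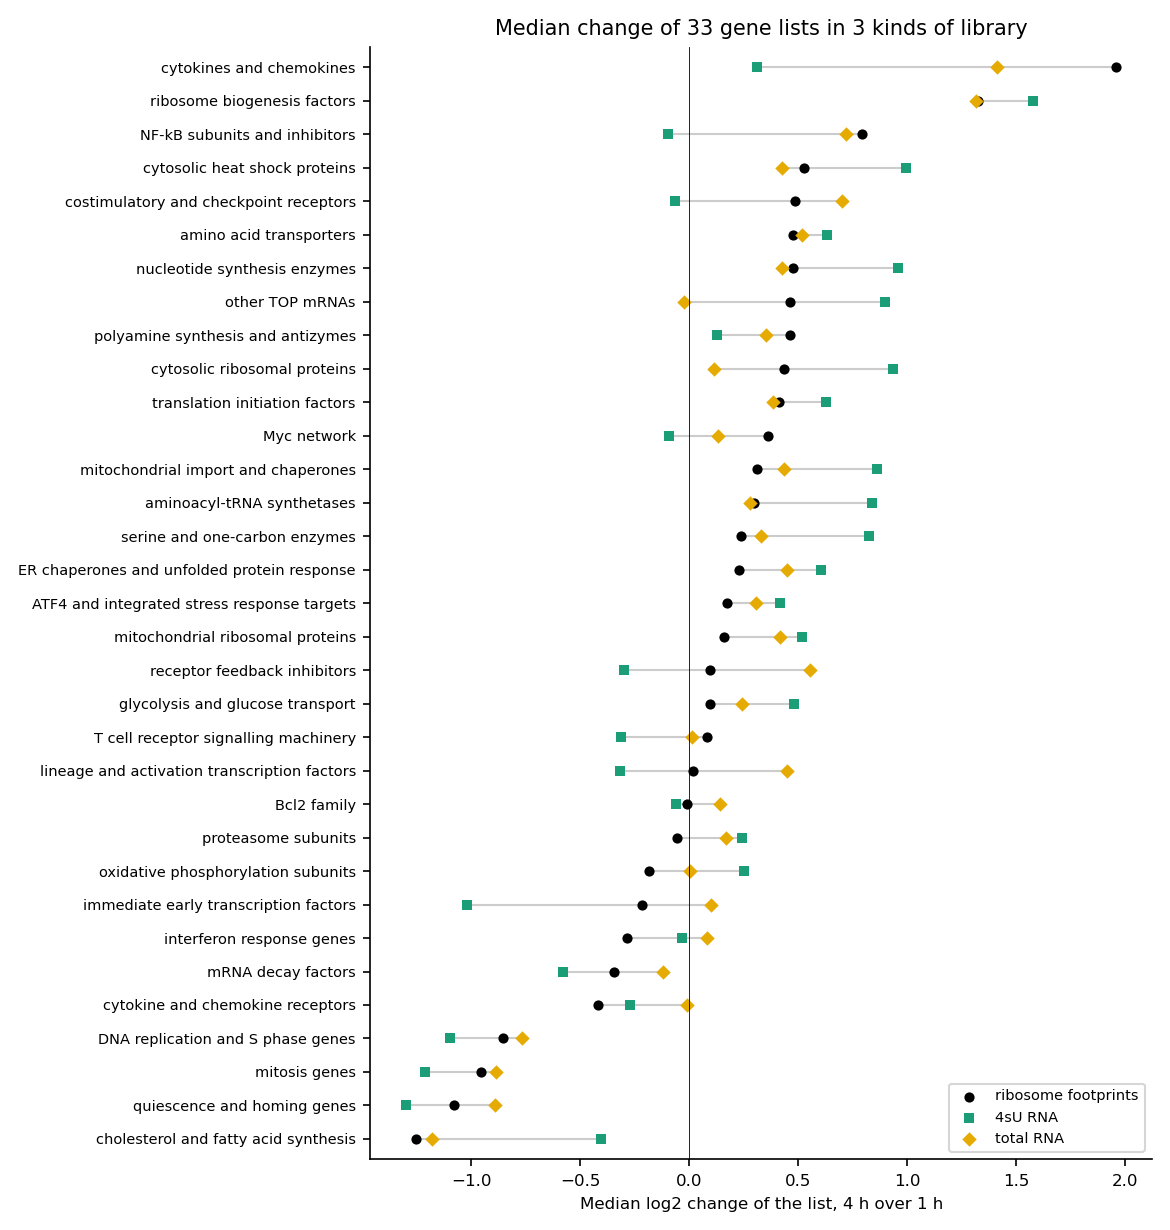
Median log2 change at 4 h over 1 h of 33 gene lists in ribosome footprints (black circles), 4sU RNA (green squares) and total RNA (yellow diamonds). Footprint and 4sU medians are over the members tested against 4sU RNA. Total RNA medians are over the members tested against total RNA, which differ in some lists (32 and 31 cytokines). Footprints of cytokines lie to the right of their 4sU RNA (1.96 and 0.31) and those of cholesterol synthesis to its left (-1.25 and -0.40).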

How the data were processed

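Ribosome footprints, 4sU RNA and total RNA were deposited as FPKM for 9420 genes, with featureCounts (Subread 1.4.6-p3) and the build GRCm38 named in the submitters' processing notes. The sources used here do not give the aligner, annotation, gene length, strand setting or gene filter, and 156 genes fell below 1 FPKM. The depth was estimated from the steps between the smallest footprint values over coding length (up to 8 reads), of which 88.6% to 95.2% per library came out as whole reads within 0.1 read. Symbols and coordinates are from GENCODE M21 (GRCm38), with 9412 matches.

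Changes were fitted with limma 3.58.1 (R 4.3.3) on log2(FPKM + 1), with a variance trend and Benjamini-Hochberg adjustment over all genes, on all 8 footprint libraries with 2 residual degrees of freedom. The 8 libraries of 4sU RNA with 1 h of labelling and the 6 of total RNA were fitted alone and in the interactions, where the single 1 h library of total RNA was assumed to vary like the others. The total RNA fit alone had 1 residual degree of freedom, so its changes are given with no p. The replicate number was a block, as the comparison pairs libraries by it, and same-numbered libraries deviated together in all 28 pairs of replicated groups (r from 0.311 to 0.791, footprints from 0.523 to 0.741). That evidence comes from these data, not the labels. The fit was run on data simulated from the same model, which cannot show whether the block suits these data.

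The members and the 33 lists were chosen with earlier results of these data known. The rule names the 12 largest called changes per direction without overlap, 2 called members per list, the 6 largest differences from 4sU RNA per direction, and 18 activation genes. Other members were named after their values were seen. Some genes that the rule names are not reported here. Alternatives were the fit without the block, pseudocounts of 0.25 and 4, no filter or 5 FPKM, median-of-ratios scaling, the 4 libraries alone and each replicated library left out (0, 1 and 4 h for footprints, 1 and 4 h in the interactions).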

Additional observations from a re-analysis of the deposited data

Results flagged for a closer look

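The footprint change at 4 h over 1 h differed from the change of newly made RNA for 423 genes by the interaction test in limma. The 12 listed here were picked by size as the 6 largest differences in each direction, with predicted or unnamed genes left out. The differences on the log2 scale, footprints minus 4sU RNA, were 2.88 for Xcl1, 2.26 for Gch1, 2.24 for Il2, 2.05 for Nfkb2, 1.89 for Ccl3 and 1.87 for Timp2, where the footprint change was the higher. They were -3.21 for Phb, -2.61 for Srsf3, -2.51 for Pcx, -2.10 for Nop10, -2.05 for Nsdhl and -2.04 for Zfp692, where it was the lower. For Phb, Srsf3 and Nop10, 97.2%, 94.8% and 37.6% of the coding windows occur in another gene, so their levels are uncertain. All 12 calls were lost without the replicate number in the fit.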

How the results depend on the processing

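The count of genes called between 4 h and 1 h was 3426, of which 1639 were higher and 1787 lower. Without the replicate block it was 1318, 721 and 597. Over the fits that left out 1 library it ran from 1319 to 4022, from 720 to 1765 and from 599 to 2257, lowest each time without the 1 h library of replicate 1 and also low without that of replicate 2 (1620, 826 and 794). The other alternatives gave 3045 to 3544 genes. Median-of-ratios scaling gave 3464 and moved the median change of all genes to -0.02. The 423 genes whose footprint change differed from the 4sU change became 0 without the replicate block and 0 to 420 when 1 library was left out, and 380 to 511 otherwise. The 0 genes that differed from total RNA stayed 0 without the block and became 0 to 45 when 1 library was left out. Of the 93 named genes called, 68 kept the call in every alternative, 22 lost it without the block, and 10 and 15 lost it without the 1 h libraries of replicates 1 and 2. Among named genes without a call, the direction turned when 1 library was left out for Phb (range -1.43 to 0.54, positive without the 1 h library of replicate 1), Nop10 (-0.71 to 0.15, positive without the 4 h library of replicate 1) and Cd69 (-0.17 to 0.76, negative without the 1 h or the 4 h library of replicate 2). The cause of these shifts was not tested. Each footprint fit that left out 1 replicated library had 1 residual degree of freedom, and the main fit had 2. With 2 libraries per time the precision rests on the pooled spread, and the 4 h library of replicate 2, with 14.02 M reads, was the shallowest of the 4.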
